A study of Mus musculus with 42 samples.

Results

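The RNA levels of 10 chemokine ligand genes (Ccl2, Ccl3, Ccl4, Ccl5, Ccl6, Cxcl9, Cxcl10, Cxcl14, Cxcl16 and Cxcl12) were followed in the liver of APOE*3-Leiden mice. The genes were given by name and not by a rule on their values, but earlier results of these data were known when they were chosen. All 10 were found among the 54446 genes of the count table and had enough counts to be tested. Liver RNA of 42 female mice was sequenced after 32 weeks, with 1 library per mouse. The APOE*3-Leiden mouse carries a human transgene that slows the clearance of lipoproteins, and every group, chow-fed mice included, carried it.

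The 10 chow-fed mice received a maintenance diet and served as healthy reference. The 16 WTD-fed mice received a Western-type diet with 15% cocoa butter, 40.5% sucrose and 1% cholesterol, to which 0.05% sodium cholate was added from week 22. They had been 8 to 14 weeks old at the beginning of a run-in of 3 weeks on this diet. The 16 atorvastatin-treated mice followed the same diet schedule with atorvastatin mixed into the food at 3.0 mg/kg/day, raised to 4.5 mg/kg/day at week 5. Atorvastatin is a statin, which blocks HMG-CoA reductase in cholesterol synthesis. WTD-fed mice were the control group for treatment and were also compared to chow-fed mice, so the comparisons share mice. The study matched the WTD-fed and treated groups by age, body weight and plasma lipids, and states no age for chow-fed mice. All chow-fed mice have numbers with the prefix AZ and all others with the prefix Gen. In comparisons with chow-fed mice, diet cannot be told apart from age or from what these prefixes stand for.

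Chemokines are small secreted proteins that guide white blood cells along a gradient, and they are named CC or CXC by the spacing of their first cysteines. Each binds G protein-coupled receptors on particular cells, and many are made upon NF-kappaB or interferon signaling. In the liver, Kupffer cells, infiltrating macrophages, endothelium, stellate cells and hepatocytes can all produce chemokines. In a bulk library, fewer cells of a type and less RNA per cell cannot be told apart.

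Library totals ran from 15661381 to 36224054 read pairs assigned to genes. Levels are given as CPM, the counts of a gene relative to all counts of the library and scaled to the size of each library. In 9 libraries (3 chow, 5 WTD, 1 atorvastatin), over 20% of the genes at 1 to 2 CPM in their group had no count, so low values there are uncertain. For this rule alone, CPM was relative to all counts of the library, without TMM. Hepatocyte markers were abundant in every library. Their 6 genes summed to between 98561 and 146600 CPM in chow-fed, 46862 and 95350 CPM in WTD-fed and 54866 and 117464 CPM in atorvastatin-treated mice.

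On the GRCm38 genome, 6 of the 10 genes lie on chromosome 11. Ccl2 is at 82035571 to 82037453, and Ccl5 (83525778 to 83530518), Ccl6 (83587882 to 83593087), Ccl3 (83647844 to 83649355) and Ccl4 (83662584 to 83664683) follow at a short distance from one another. Cxcl16 is at 70453983 to 70459984 on the same chromosome. Cxcl9 (92321347 to 92328079) and Cxcl10 (92346638 to 92348889) are neighbors on chromosome 5, Cxcl14 is on chromosome 13 (56288643 to 56296551) and Cxcl12 on chromosome 6 (117168535 to 117181367). The loci of Ccl2, Ccl6, Cxcl10 and Cxcl16 overlap a gene on the opposite strand (Gm17268, E230016K23Rik, Art3 and Zmynd15) and none overlaps a gene on its own strand, and the libraries kept the strand.

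Promoters of 4 ligands are shown since they differ in motifs of the NF-kappaB and interferon pathways, the signals for which gene lists are described further on. The sequences are the 250 bases before the annotated start in RefSeq (GRCm38.p6), 5′ to 3′ on the strand of the gene, which is the minus strand for all 4. Cxcl9 lies at chr5:92328080-92328329, Cxcl10 at chr5:92348890-92349139, Cxcl14 at chr13:56296552-56296801 and Ccl6 at chr11:83593088-83593337. Capitals mark matches, on either strand, to the kappaB consensus, to the GAS motif TTCNNNGAA or to the core of the interferon-stimulated response element, GAAANNGAA.
Cxcl9: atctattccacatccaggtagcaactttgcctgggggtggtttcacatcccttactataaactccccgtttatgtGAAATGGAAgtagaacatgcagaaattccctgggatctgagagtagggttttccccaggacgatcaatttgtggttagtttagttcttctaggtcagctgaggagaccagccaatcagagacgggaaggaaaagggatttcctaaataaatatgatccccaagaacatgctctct
Cxcl10: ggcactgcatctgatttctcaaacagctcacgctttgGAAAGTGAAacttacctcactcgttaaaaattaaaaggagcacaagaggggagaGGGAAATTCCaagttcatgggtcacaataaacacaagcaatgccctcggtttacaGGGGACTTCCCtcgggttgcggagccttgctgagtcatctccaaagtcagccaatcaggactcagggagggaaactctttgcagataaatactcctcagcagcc
Cxcl14: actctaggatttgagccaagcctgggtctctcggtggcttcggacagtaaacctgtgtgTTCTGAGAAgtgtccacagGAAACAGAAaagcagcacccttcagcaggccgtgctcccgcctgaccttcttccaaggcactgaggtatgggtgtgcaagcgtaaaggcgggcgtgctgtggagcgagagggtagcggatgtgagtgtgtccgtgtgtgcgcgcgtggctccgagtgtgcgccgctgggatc
Ccl6: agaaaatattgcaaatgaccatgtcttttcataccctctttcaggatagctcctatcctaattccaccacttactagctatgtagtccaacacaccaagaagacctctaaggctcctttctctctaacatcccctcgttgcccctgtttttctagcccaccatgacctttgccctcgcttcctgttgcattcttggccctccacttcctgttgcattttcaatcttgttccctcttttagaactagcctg
The promoter of Cxcl10 held 3 matches to the kappaB consensus, at -159, -104 and -103 from the start, of which the last 2 overlap, and 1 match to the interferon core at -213. The Cxcl9 promoter held the interferon core at -175. In Cxcl14 a GAS match at -191 and an interferon core at -172 stood side by side, while the Ccl6 promoter held no match. Of the 6 members with an entry, Ccl3 held an interferon core at -39, and Cxcl12 held no match. No promoter was at hand for Ccl2, Ccl4, Ccl5 and Cxcl16. Among 32536 different promoters of the same length, the kappaB consensus was found in 7.28%, the GAS motif in 7.04% and the interferon core in 7.15%. A match is a description of the letters and not a measured binding site.

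Levels of different genes were compared per kb of exons. Cxcl12, a homeostatic ligand of Cxcr4 that stromal and endothelial cells make, was the most abundant of the 10 in each group. Its level ranged from 34.2 to 64.0 CPM per kb in chow-fed, 35.0 to 54.5 in WTD-fed and 35.3 to 55.3 in atorvastatin-treated mice. In chow-fed and in atorvastatin-treated mice this range lay above that of the next ligand. In WTD-fed mice it overlapped that of Ccl6, a rodent CC chemokine of myeloid cells, which ranged from 26.7 to 54.4 CPM per kb.

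The order of the other ligands differed between the diets. In chow-fed mice Cxcl16 (median 5.70 CPM per kb), Cxcl9 (5.42) and Ccl5 (4.60) came next. In WTD-fed mice Ccl6 (34.1), Cxcl16 (23.6), Ccl2 (12.2) and Cxcl14 (8.45) did so, and these 4 kept the places after Cxcl12 except that Cxcl14 was eighth in atorvastatin-treated mice (4.77). Ccl3 and Ccl4 were the 2 lowest in each group. Apart from Cxcl12, neighbors in the order had overlapping ranges in all groups. Of the summed level of the 10 genes per kb, Cxcl12 made up a median of 63.2% in chow-fed, 30.5% in WTD-fed and 38.6% in atorvastatin-treated mice, and Ccl6 made up 3.74%, 24.0% and 20.0%.

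**Figure D1:**
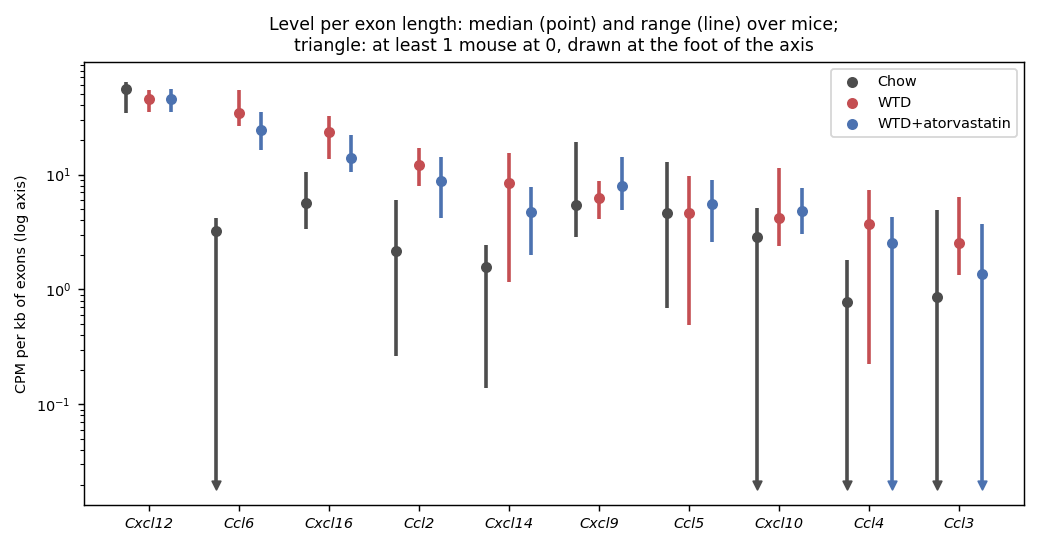
Level per exon length of the 10 ligands on a log axis (CPM per kb of exons), ordered by the median in WTD-fed mice, with the median as a point and the lowest to highest mouse as a line for each group. Cxcl12 is highest in each group, and Ccl6 moves from a median of 3.22 in chow-fed to 34.1 in WTD-fed and 24.6 CPM per kb in atorvastatin-treated mice.

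Upon WTD feeding, 5 of the 10 ligands rose and 1 fell as compared to chow-fed mice. Ccl6, Cxcl14, Ccl2, Ccl4 and Cxcl16 rose and Cxcl12 fell, at an adjusted p under 0.01 by the quasi-likelihood test of edgeR, Benjamini-Hochberg adjusted over the 15574 tested genes. Of all tested genes, 17.5% were called higher and 16.0% lower in this comparison. The median log2 fold change was 1.59 over the 10 ligands and 0.03 over all tested genes.

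Ccl6, a ligand of Ccr1, changed most of the 10. Its level was 0 to 7.55 CPM in chow-fed mice (median 5.78), 47.9 to 97.6 in WTD-fed mice (median 61.1) and 29.1 to 62.4 in atorvastatin-treated mice (median 44.1). Every WTD-fed and every atorvastatin-treated mouse was above every chow-fed mouse. The log2 fold change of WTD-fed to chow-fed mice was 3.71 (SE 0.27, n = 16 and 10, edgeR adjusted p = 5.56e-15). In the 33 libraries outside the 9 with missing weak genes, the mean was 62.3 CPM in WTD-fed and 6.14 CPM in chow-fed mice, a log2 ratio of 3.34.

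Cxcl16 is a membrane-bound ligand of Cxcr6 that also takes up oxidized lipoprotein and is shed by the protease Adam10. It ranged from 10.2 to 31.7 CPM in chow-fed (median 17.2), from 41.6 to 98.3 in WTD-fed (median 71.3) and from 31.6 to 66.6 in atorvastatin-treated mice (median 42.1). The WTD-fed mice all lay above the chow-fed mice, with means of 69.4 ± 14.5 (SD, n = 16) and 18.5 ± 5.85 CPM (SD, n = 10). The log2 fold change was 1.91 (SE 0.14, edgeR adjusted p = 1.06e-15).

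Ccl2 (monocyte chemoattractant protein 1), the main ligand of Ccr2 on inflammatory monocytes, ranged from 0.298 to 6.89 CPM in chow-fed (median 2.47), from 9.09 to 19.4 in WTD-fed (median 13.9) and from 4.80 to 16.1 in atorvastatin-treated mice (median 9.96). The chow-fed and WTD-fed mice did not overlap. The log2 fold change on WTD was 2.44 (SE 0.29, edgeR adjusted p = 5.04e-10). Ccl2, Ccl6 and Cxcl16 were the 3 ligands whose chow-fed and WTD-fed mice did not overlap, and 5.83% of all tested genes had no overlap either.

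Cxcl14, a chemokine with a less settled receptor, ranged from 0.253 to 4.47 CPM in chow-fed (median 2.87), from 2.11 to 28.1 in WTD-fed (median 15.4) and from 3.61 to 14.3 in atorvastatin-treated mice (median 8.71). All WTD-fed mice but 1 lay above the chow-fed mice. The exception was WTD replicate 15 at 2.11 CPM, which was also the lowest WTD-fed mouse in Ccl2 and Cxcl16 and in the summed level of 8 macrophage markers, and is among the 9 libraries. The log2 fold change was 2.51 (SE 0.31, edgeR adjusted p = 2.64e-09).

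The related CC chemokines Ccl3 and Ccl4, which attract monocytes and other leukocytes, were the least abundant of the 10. Ccl4 ranged from 0 to 1.19 CPM in chow-fed (median 0.518), from 0.147 to 4.84 in WTD-fed (median 2.45) and from 0 to 2.82 in atorvastatin-treated mice (median 1.69). It was at 0 in 3 chow-fed mice, all of them among the 9 libraries, and 13 of the 16 WTD-fed mice lay above the highest chow-fed mouse. It rose on WTD, with a log2 fold change of 2.25 (SE 0.61, edgeR adjusted p = 0.00184).

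Ccl3 ranged from 0 to 3.74 CPM in chow-fed (median 0.665), from 1.03 to 4.92 in WTD-fed (median 1.95) and from 0 to 2.82 in atorvastatin-treated mice (median 1.04). Each WTD-fed mouse was above the chow-fed median, but 1 chow-fed mouse, replicate 5 and among the 9 libraries, reached 3.74 CPM. The log2 fold change of Ccl3 on WTD was 1.28 (SE 0.62), which did not pass (edgeR adjusted p = 0.0937). Without the 9 libraries it was 1.52 (edgeR adjusted p = 0.0358). Of 9 other fits, 1 called Ccl3, that with limma-voom (adjusted p = 0.000306), and 0 of the 42 fits with a mouse left out did.

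The interferon-inducible ligands of Cxcr3 on T and NK cells, Cxcl9 and Cxcl10, did not pass the threshold on WTD. Cxcl9 ranged from 8.69 to 57.9 CPM in chow-fed (median 16.4), from 12.3 to 26.3 in WTD-fed (median 18.9) and from 14.9 to 42.6 in atorvastatin-treated mice (median 23.8). These ranges overlapped, and the log2 fold change of WTD-fed to chow-fed mice was -0.20 (SE 0.20, edgeR adjusted p = 0.433). Without the chow-fed mouse at 57.9 CPM (replicate 5) it was 0.10.

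Cxcl10 ranged from 0 to 11.4 CPM in chow-fed (median 6.46), from 5.38 to 25.5 in WTD-fed (median 9.47) and from 6.91 to 17.3 in atorvastatin-treated mice (median 10.9). Its log2 fold change on WTD was 0.68 (SE 0.29, edgeR adjusted p = 0.0482). The chow-fed mouse at 0 and the WTD-fed mouse at 25.5 CPM are both among the 9 libraries. In the other 33, the means were 8.68 CPM in WTD-fed and 7.25 CPM in chow-fed mice, a log2 ratio of 0.26.

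Ccl5 (RANTES), a product of T cells, ranged from 0.656 to 12.4 CPM in chow-fed (median 4.42), from 0.472 to 9.34 in WTD-fed (median 4.46) and from 2.48 to 8.58 in atorvastatin-treated mice (median 5.36). The 3 groups overlapped over most of their range. The log2 fold change on WTD was -0.17 (SE 0.32, edgeR adjusted p = 0.698), with means of 4.83 ± 2.23 (SD, n = 16) and 5.45 ± 3.77 CPM (SD, n = 10). The T and NK cell list, whose 11 genes summed to a median of 12.4 CPM in chow-fed and 16.4 CPM in WTD-fed mice, had 0 called genes in edgeR in all 3 comparisons. On WTD, 2 of the 11 had an unadjusted p under 0.05, and DESeq2 called 1 and limma-voom 2. With atorvastatin as compared to WTD-fed mice, 1 had such a p, and both tools called 0.

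Cxcl12 was the only 1 of the 10 that fell on WTD. It ranged from 279 to 523 CPM in chow-fed (median 458), from 286 to 445 in WTD-fed (median 370) and from 289 to 452 in atorvastatin-treated mice (median 374). All 16 WTD-fed mice lay below the chow-fed median, and the mean was 15.9% lower. Its log2 fold change was -0.25 (SE 0.08, edgeR adjusted p = 0.00847), and the adjusted p stayed under 0.01 in 5 of 10 other fits and in 25 of the 42 fits with a mouse left out. The lowest chow-fed value, 279 CPM, came from a library among the 9, and without these the means were 377 CPM in WTD-fed and 459 CPM in chow-fed mice.

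**Figure D2:**
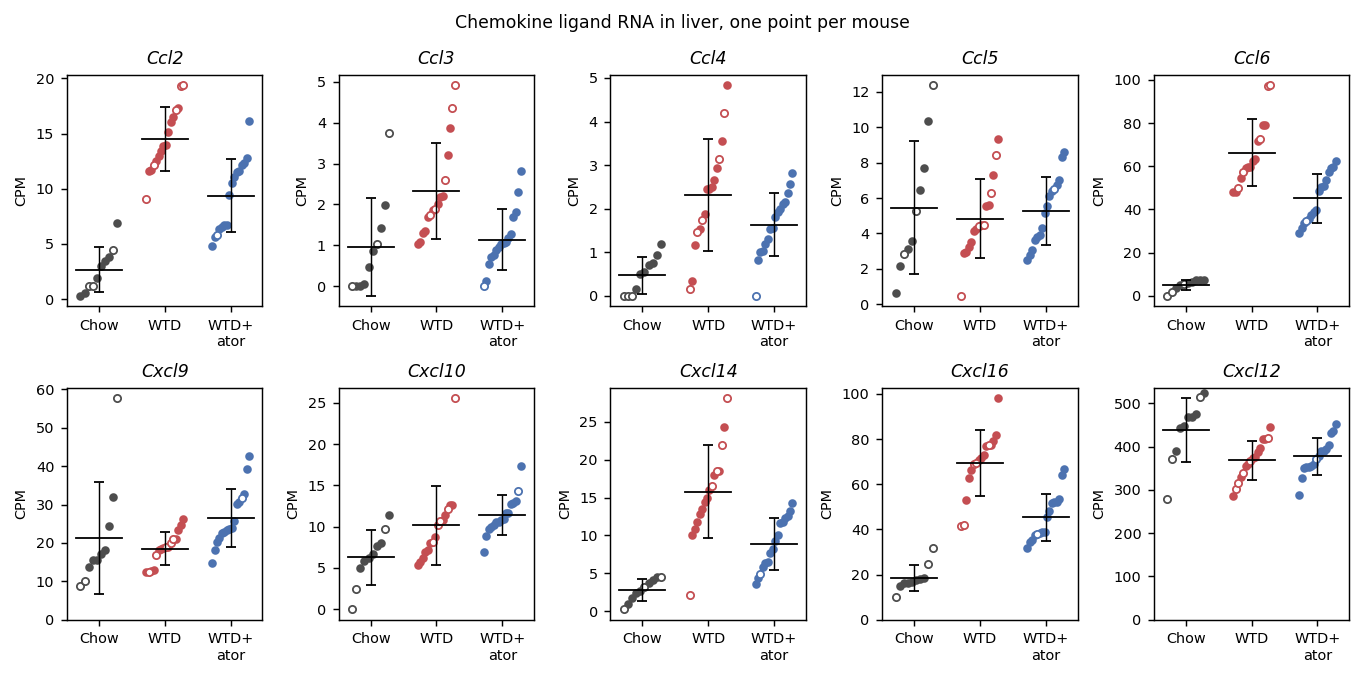
CPM of each ligand in every mouse by group, sorted within a group, with the mean as a line and the SD as a bar. Open points are the 9 libraries in which over 20% of weakly expressed genes had no count. The WTD-fed mice of Ccl2, Ccl6 and Cxcl16 all lie above the chow-fed mice, and Cxcl16 is lower in the atorvastatin-treated mice (31.6 to 66.6 CPM) than in the WTD-fed mice (41.6 to 98.3 CPM), with overlap.

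With atorvastatin, Cxcl16 was the only 1 of the 10 ligands called as compared to WTD-fed mice. It fell, and its mean was 34.7% lower. All 16 treated mice lay below the WTD-fed median, and 8 of them lay below the lowest WTD-fed mouse. Its log2 fold change was -0.61 (SE 0.12, n = 16 and 16, edgeR adjusted p = 0.00022). Of all tested genes, 4.84% were called higher and 2.26% lower with treatment. Both groups overlapped for each ligand, and 0.00642% of all tested genes, which is 1 gene, had no overlap.

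Of the 9 other ligands, 5 had lower and 4 had higher fitted levels with atorvastatin, of which Cxcl12 (0.03) turned its sign under RLE scaling, and the median log2 fold change over the 10 was -0.52, against 0.00 over all tested genes. Cxcl14 had a log2 fold change of -0.82 (SE 0.24, edgeR adjusted p = 0.0165), and all 16 treated mice lay below the WTD-fed median. For Ccl2 the value was -0.62 (SE 0.22, adjusted p = 0.0565) and for Ccl6 it was -0.55 (SE 0.19, adjusted p = 0.0514), with 15 of 16 treated mice below the WTD-fed median in each. Cxcl9 had a positive value of 0.51 (SE 0.18, adjusted p = 0.0433), with 14 of 16 treated mice above the WTD-fed median. These 4 values had an unadjusted p under 0.05 but did not pass the threshold in this fit.

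The number of ligands called with treatment depended on the fit, while Cxcl16 was called in each of the 10 other fits and in all 42 fits with a mouse left out. When only the 2 groups compared were fitted, 5 ligands were called (Ccl2, Ccl6, Cxcl9, Cxcl14 and Cxcl16), and limma-voom with quality weights called the same 5. DESeq2 called Cxcl14 and Cxcl16. Without the 9 libraries, Ccl6, Cxcl14 and Cxcl16 were called, and leaving out a single mouse gave between 1 and 3 calls. Chow replicate 5 gave the 3 when left out, which were Cxcl9, Cxcl14 and Cxcl16, although it is not in either group. Chow replicate 2 (Ccl6 and Cxcl16) and WTD replicate 15 (Cxcl14 and Cxcl16) gave 2 each. The calls over all genes changed with the fit too. They were 1106 of 15574 in the fit reported, 1361 of 14595 with only the 2 groups and 3145 of 15574 with limma-voom. DESeq2 called 1400 of 26492, and 1664 of 15799 were called without the 9 libraries. Without chow replicate 5, chow replicate 2 or WTD replicate 15, they were 1194 of 15686, 1257 of 15745 and 1575 of 15511.

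The remaining ligands did not pass. Ccl3 had the largest fitted fall of the 10 but a wide error, with a log2 fold change of -1.03 (SE 0.53, adjusted p = 0.222 in edgeR). For Ccl3, 14 of 16 treated mice lay below the WTD-fed median, and 0 of 9 other fits called it. Ccl4 had a log2 fold change of -0.49 (SE 0.48, adjusted p = 0.602 in edgeR). The values were 0.17 (SE 0.24) for Cxcl10, 0.13 (SE 0.28) for Ccl5 and 0.03 (SE 0.07) for Cxcl12. Cxcl12, the most abundant, had the smallest error of the 10.

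As compared to chow-fed mice, atorvastatin-treated mice still had more of 4 ligands. Ccl6 (log2 fold change 3.16, SE 0.26), Ccl2 (1.82, SE 0.28), Cxcl14 (1.69, SE 0.30) and Cxcl16 (1.30, SE 0.14) were called in edgeR, with adjusted p of 7.47e-13, 6.42e-07, 1.14e-05 and 1.80e-10. Of all tested genes, 14.2% were called higher and 10.7% lower. Ccl6 alone had no overlap between the groups, against 4.37% of all tested genes. The median was 1.07 over the 10 and 0.04 over all tested genes.

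The other 6 did not pass in this comparison. Ccl4 had a log2 fold change of 1.76 (SE 0.59, edgeR adjusted p = 0.0166), Cxcl10 of 0.85 (SE 0.29, adjusted p = 0.0168) and Cxcl12 of -0.22 (SE 0.08, adjusted p = 0.0296). Without the 9 libraries all 3 were called, which made 7. Over all tested genes, 4581 of 15799 were called there, against 3893 of 15574 with all mice. The values were 0.31 (SE 0.20) for Cxcl9, 0.25 (SE 0.60) for Ccl3 and -0.05 (SE 0.32) for Ccl5.

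**Figure D3:**
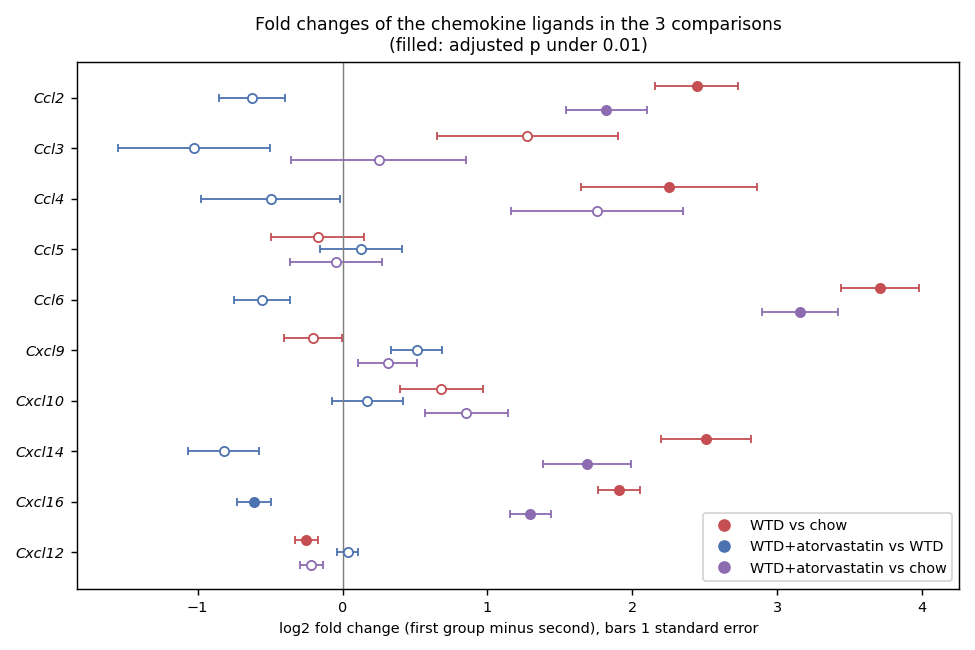
Log2 fold changes of the 10 ligands in the 3 comparisons, with 1 SE as bar, filled where the adjusted p was under 0.01. WTD-fed to chow-fed values run from -0.25 (Cxcl12) to 3.71 (Ccl6), and of the treated to WTD-fed values that of Cxcl16 (-0.61) is filled.

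Of 28 other chemokine ligands, 17 had enough counts to be tested. On WTD, 3 rose and 2 fell, with a median log2 fold change of 0.77, beside 17.5% of all tested genes that rose and 16.0% that fell. DESeq2 called 7 of these ligands on WTD and limma-voom 9, beside 5875 of 26492 and 6509 of 15574 of all genes. Cxcl5, a neutrophil-attracting ligand, ranged from 0 to 0.569 CPM in chow-fed (0 in 8 of 10) and from 0.858 to 8.27 in WTD-fed mice. Cx3cl1 (fractalkine), the membrane-bound ligand of Cx3cr1, rose by a log2 fold change of 3.37 (SE 0.41, edgeR adjusted p = 1.49e-09). Ccl27a fell by 1.00 on the log2 scale (SE 0.15, edgeR adjusted p = 3.31e-07). With atorvastatin 0 of the 17 were called in edgeR and in DESeq2 and 5 in limma-voom, and 6 had an unadjusted p under 0.05, with Cx3cl1 at -0.89 (SE 0.30, adjusted p = 0.0394) and Ccl27a at 0.48 (SE 0.14, adjusted p = 0.0128).

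Of 23 chemokine receptors, 17 were tested, of which 6 rose on WTD. Receptors of several of the 10 ligands were among them. Ccr2, which binds Ccl2, ranged from 1.07 to 10.3 CPM in chow-fed, from 9.81 to 32.3 in WTD-fed and from 7.49 to 18.0 in atorvastatin-treated mice (log2 fold change on WTD 2.15, SE 0.23, edgeR adjusted p = 5.09e-11). Cxcr4, which binds Cxcl12, ranged from 0 to 3.27, from 3.60 to 22.9 and from 2.11 to 11.4 CPM (log2 fold change 3.20, SE 0.37, adjusted p = 4.31e-10). So the receptor Cxcr4 and its ligand Cxcl12 changed in opposite directions on WTD.

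Receptors of the lymphocyte-attracting ligands were low. Cxcr3, which binds Cxcl9 and Cxcl10, had a median of 0.833 CPM in chow-fed, 2.26 in WTD-fed and 1.97 in atorvastatin-treated mice, and its log2 fold change on WTD was 1.34 (SE 0.67, edgeR adjusted p = 0.104). Cxcr6, the receptor of Cxcl16, had medians of 0.920, 2.63 and 1.67 CPM and a log2 fold change of 1.01 (SE 0.56, adjusted p = 0.144), and it was called on WTD by limma-voom and without the 9 libraries. Ccr1, which binds Ccl3 and Ccl6, was at 0 in 5 chow-fed mice but at 15.1 CPM in 1 of them. Its log2 fold change on WTD was 1.10 (SE 0.75, edgeR adjusted p = 0.245) with all mice and 3.23 (adjusted p = 4.35e-05) without the 9 libraries. With atorvastatin 1 receptor was called in edgeR, Cx3cr1, which fell by 0.78 on the log2 scale (SE 0.18, edgeR adjusted p = 0.00214), against 2 in DESeq2 and 3 in limma-voom. Ccr2 had a log2 fold change of -0.62 with atorvastatin (SE 0.19, edgeR adjusted p = 0.0181), and it was called in 4 of 10 other fits, those with DESeq2, limma-voom, 10 counts in every mouse and only the 2 groups compared. It was also called in edgeR without chow replicate 1 or 5 or without WTD replicate 14 or 15.

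Genes that process or bind chemokines were all tested, and of these 8, 4 rose and 3 fell on WTD. Adam10, which sheds Cxcl16, rose by a log2 fold change of 0.77 (SE 0.10, edgeR adjusted p = 1.90e-09). Dpp4, which cuts the ends of Cxcl9, Cxcl10 and Cxcl12 among other chemokines, fell by 0.48 on WTD (SE 0.08, adjusted p = 4.98e-07). It was the 1 gene of this list called with atorvastatin in edgeR and in DESeq2 (2 in limma-voom), with a rise of 0.26 (SE 0.07, edgeR adjusted p = 0.00474), which was lost with RLE normalization (adjusted p = 0.0141) and without treated replicate 6, 8 or 14 (adjusted p up to 0.0120). Sdc1, a heparan sulfate proteoglycan of the hepatocyte surface, fell on WTD by 0.52 (SE 0.08), and the matrix proteoglycan gene Hspg2 rose by 0.88 (SE 0.10).

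Of 12 genes of the interferon gamma arm, 10 were tested, and 7 rose on WTD. The interferon gamma receptor genes Ifngr1 (log2 fold change 1.22, SE 0.12) and Ifngr2 (1.07, SE 0.12) and the class II transactivator Ciita (2.02, SE 0.24) were among the 7, whereas Cxcl9 and Cxcl10 were not called. Ifng itself had too few counts to be tested, and Irf8 was at 0 in all mice. Whether Irf8 RNA was absent or was lost in counting was not tested, so its level cannot be read here. With atorvastatin, Ifngr2 fell by 0.38 (SE 0.10, edgeR adjusted p = 0.00766) as the 1 called gene in edgeR and in DESeq2, against 3 in limma-voom. The call on Ifngr2 was made in 27 of the 42 fits with a mouse left out (adjusted p 0.00163 to 0.0175). It was lost without WTD replicate 4, 6, 7, 8, 9, 11 or 13, without treated replicate 5, 6, 9, 10, 11, 12, 14 or 16, and with the share of weak genes without a count as covariate (edgeR adjusted p = 0.0358). Ifngr1 had a log2 fold change of -0.30 (SE 0.10, edgeR adjusted p = 0.0325) and was called by limma-voom, without the 9 libraries and without WTD replicate 15 alone.

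Of 13 genes of the NF-kappaB arm, all were tested, and 9 rose on WTD, with a median log2 fold change of 0.60. The subunit Relb (1.93, SE 0.16) and the inhibitor Tnfaip3, known as A20 (3.12, SE 0.30), had the smallest p. With atorvastatin the subunit Nfkb2 fell by 0.43 (SE 0.11, edgeR adjusted p = 0.00433), and Nfkb2 was the 1 called gene of the list in edgeR, a call that was lost without WTD replicate 13 (adjusted p = 0.0112). DESeq2 and limma-voom each called 5 of the 13 with atorvastatin, Relb and Tnfaip3 in both. In edgeR the log2 fold change of Relb was -0.43 (SE 0.13, adjusted p = 0.0225) and that of Tnfaip3 -0.72 (SE 0.23, adjusted p = 0.0268).

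**Figure D4:**
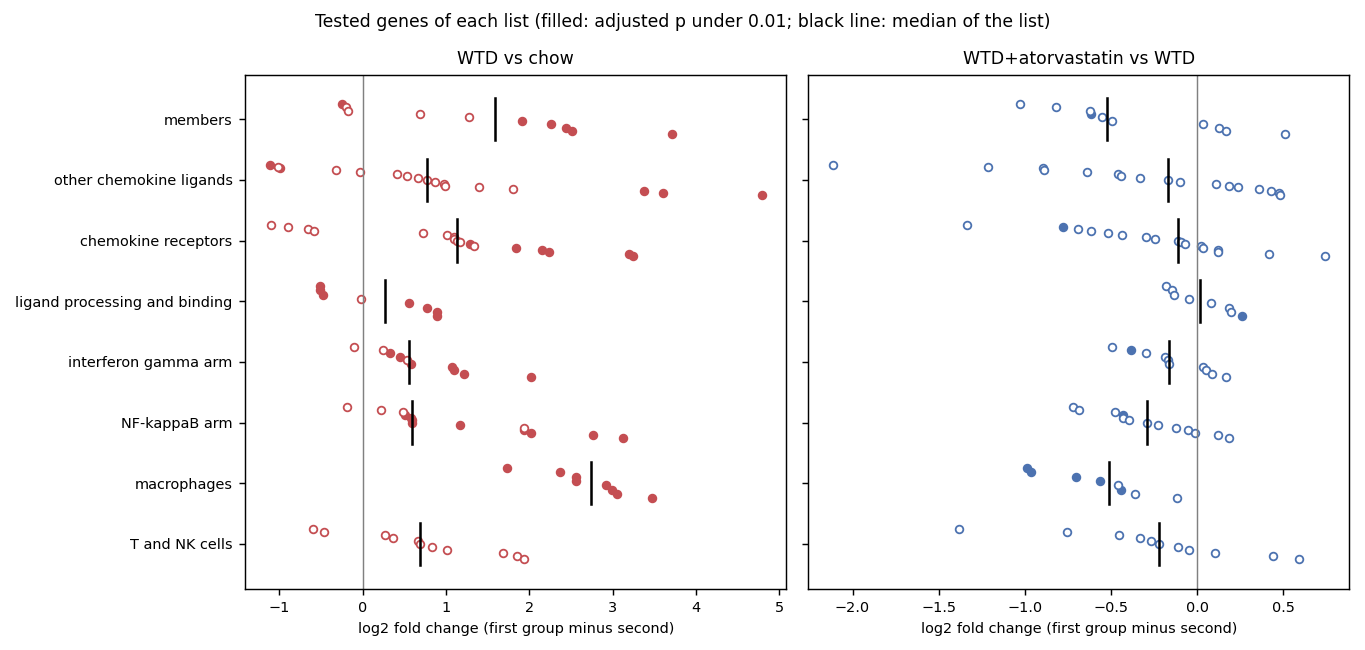
Log2 fold changes of each tested gene of the ligand, receptor, processing and signaling lists and of the macrophage and T and NK cell markers, on WTD (left) and with atorvastatin (right), filled where the adjusted p was under 0.01, with the median of each list as a line. The macrophage list has 8 of 8 genes filled on WTD (median 2.74) and 5 of 8 with atorvastatin (median -0.51), the T and NK cell list has 0 of 11 in both.

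Markers of some cell types changed as well and those of others did not. Of all tested genes, 17.5% were called higher and 16.0% lower on WTD, and 4.84% and 2.26% with atorvastatin. All 8 macrophage markers rose on WTD, and their summed level was 255 to 374 CPM in chow-fed, 1346 to 3043 in WTD-fed and 1067 to 2162 in atorvastatin-treated mice, without a marker at 0 in all mice. With atorvastatin, 5 of the 8 fell. The 7 markers of lipid-associated macrophages all rose on WTD (154 to 394 CPM in chow-fed, 802 to 2534 in WTD-fed mice), and 4 fell with atorvastatin (758 to 1710 CPM). Of the stellate cell list, 3 of 8 genes rose on WTD, and of the sinusoidal endothelium list 1 of 6 rose and 2 fell. All 5 tested hepatocyte genes fell on WTD. The median sum of the hepatocyte list was 112254 CPM in chow-fed, 60475 in WTD-fed and 97230.5 in atorvastatin-treated mice. All 5 cholangiocyte and all 3 tested neutrophil genes rose on WTD, and so did 2 of 5 Kupffer cell, 1 of 5 tested monocyte and 1 of 6 dendritic cell genes. The B cell list had 0 called genes. With atorvastatin, 1 Kupffer cell gene rose and 1 fell, 1 monocyte gene rose, and the cholangiocyte, neutrophil, dendritic cell and B cell lists had 0 called. Likewise with treatment, 4 of the 5 hepatocyte and 2 sinusoidal endothelium genes rose, and 1 stellate cell gene rose and 1 fell. The part of these cells in the change of each ligand was not tested.

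Within the 16 atorvastatin-treated mice, 4 of the ligands that rose on WTD varied together. The relations were computed on log2 CPM for the 45 pairs of ligands and 9 pairs of ligand and receptor, within the WTD-fed and within the treated mice, which makes 108, with two-sided permutation tests and Benjamini-Hochberg adjustment over all 108. In treated mice 14 of 54 passed an adjusted p under 0.05. Among them were all 6 pairs of Cxcl16, Ccl6, Ccl2 and Cxcl14. Spearman's rho of each of the 14 passed as well, with adjusted permutation p from 0.00288 to 0.0421. For Ccl6 and Cxcl16, Pearson's r was 0.87 (permutation p = 5.0e-05, adjusted 0.00297) and rho 0.86, and r was 0.87 without the 2 mice farthest from the median of Ccl6. For Cxcl14 and Cxcl16, r was 0.84 (adjusted permutation p = 0.00297), rho 0.85 and r without 2 mice 0.77. For Ccl2 and Ccl6, r was 0.86 (adjusted permutation p = 0.00297), rho 0.80 and r without 2 mice 0.84.

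Cxcl12 ran against these 4 in treated mice. Its r was -0.81 with Cxcl14 (adjusted permutation p = 0.00367, rho -0.83, r without 2 mice -0.69), -0.75 with Ccl6 (adjusted permutation p = 0.00472, rho -0.75, -0.74 without 2 mice), -0.72 with Cxcl16 (adjusted permutation p = 0.0113, rho -0.79, -0.81 without 2 mice) and -0.71 with Ccl2 (adjusted permutation p = 0.0120, rho -0.76, -0.64 without 2 mice). Ccl3 went with Ccl2 and with Ccl6 (r of 0.69 in each). Of the receptor pairs, Ccl6 and Ccr1 passed (r 0.66, adjusted permutation p = 0.0120), and so did Ccl3 and Ccr1 (r 0.90), which rested on 2 mice, since r was 0.49 without them (unadjusted permutation p = 0.0749). All 14 relations passed again without the 1 treated mouse among the 9 libraries.

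The same mice were low in several ligands. Of the 8 treated mice lowest in Ccl6 (29.1 to 39.6 CPM, the others 48.7 to 62.4), all 8 were among the 8 lowest in Ccl2 and 7 among the 8 lowest in Cxcl16 and in Cxcl14. Of the 8 lowest in Cxcl16, 7 were among the 8 highest in Cxcl12. The gap between these 2 sets in Ccl6 was 27.2% of its range. The widest gap of Cxcl16 (53.4 to 64.0 CPM, 30.3% of its range) set 2 mice apart, and that of Cxcl14 (10.1 to 11.6 CPM, 14.4%) set 6 apart, so the mice did not fall into the same separate sets in each ligand. The labels name no cage, litter or batch of a mouse.

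The macrophage markers and the main axis of variation among treated mice moved with these relations. Against the log2 of the summed CPM of the 8 macrophage markers, r was 0.88 for Cxcl14, 0.88 for Cxcl16, 0.86 for Ccl6 (adjusted permutation p = 0.000133 for each, over 20 relations), 0.79 for Ccl2 (adjusted permutation p = 0.0011) and -0.76 for Cxcl12 (adjusted permutation p = 0.0022). Without 2 mice, these 5 values were 0.91, 0.85, 0.86, 0.80 and -0.89, and Spearman's rho was 0.94, 0.84, 0.89, 0.84 and -0.86. Pearson's r was -0.38 for Cxcl9 and 0.11 for Cxcl10. The first principal component of 9424 genes took 33.3% of the variance among treated mice, and the size of r with it was 0.87 for Ccl2, 0.81 for Cxcl14, 0.79 for Cxcl16, 0.78 for Ccl6 and 0.76 for Cxcl12. Among WTD-fed mice the first component took 22.3% of the variance. There the size of r was 0.43 for Ccl2, 0.44 for Cxcl14, 0.32 for Cxcl16, 0.01 for Ccl6 and 0.07 for Cxcl12. These measures were added after the data were seen.

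Among the 16 WTD-fed mice, 1 of 54 relations passed, between Ccl3 and Cxcl12 (r -0.67, adjusted permutation p = 0.0326, rho -0.69, -0.65 without 2 mice). It did not pass in the 11 libraries outside the 9 (r -0.64, adjusted permutation p = 0.158). In those 11 libraries 2 other pairs passed. Ccl6 and Cxcl12 had an r of 0.85 (adjusted permutation p = 0.00893), against 0.000144 in all 16 WTD-fed mice and 0.63 without 2 mice, which is opposite in sign to the -0.75 of the treated mice. Ccl2 and Cxcl12 had an r of -0.79 (adjusted permutation p = 0.0175), against -0.60 in all 16. For Ccl6 and Cxcl16, r was 0.02 in all 16 WTD-fed mice, 0.53 without 2 mice and 0.51 in the 11 libraries. For Cxcl14 and Cxcl16 it was 0.49, 0.0050 and 0.22. The difference between the groups in these relations was not tested. Against the macrophage markers, Cxcl14 (r 0.84) and Cxcl16 (r 0.66) passed in WTD-fed mice with adjusted permutation p of 0.0108 and 0.0229, and Spearman's rho was 0.54 and 0.56 (unadjusted permutation p = 0.0350 and 0.0275). Without 2 mice r was 0.53 and 0.22 (unadjusted permutation p = 0.0533 and 0.447), so that the size of r depended on these mice. In the 11 libraries outside the 9, r was 0.55 for Cxcl14 (unadjusted permutation p = 0.0777) and 0.74 for Cxcl16 (unadjusted permutation p = 0.00846).

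**Figure D5:**
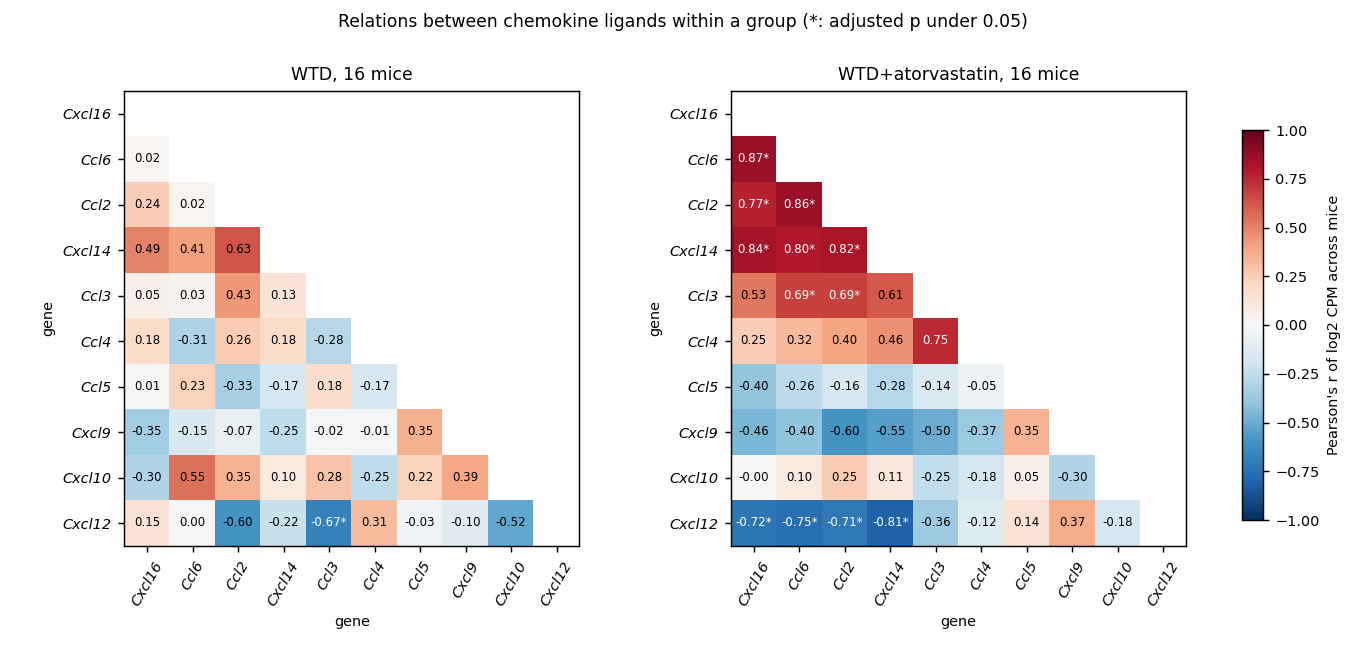
Pearson's r of log2 CPM for the 45 pairs of ligands within the 16 WTD-fed mice (left) and the 16 atorvastatin-treated mice (right), with an asterisk at an adjusted p under 0.05. In treated mice the block of Cxcl16, Ccl6, Ccl2 and Cxcl14 is positive (0.77 to 0.87) and their relation to Cxcl12 negative (-0.71 to -0.81), and in WTD-fed mice 1 pair, Ccl3 and Cxcl12, is marked.

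Over all 42 mice, each ligand was set against the other tested genes by the correlation of log2 CPM deviations from the group means, as a description without a test. Cxcl16 was most like Ltbp3 (r 0.82), Tagln2 (0.78) and Igfbp7 (0.75), and these values were 0.70, 0.76 and 0.71 in the 33 libraries. Cxcl14 was most like Slc6a8 (0.79), Ctss (0.75) and Laptm5 (0.74), Ccl2 like Lat2 (0.70), Slc37a2 (0.69) and Galns (0.64), and Cxcl9 like Gbp2 (0.67), Stk24 (0.66) and Gbp7 (0.65), of which Gbp2 and Gbp7 are interferon-inducible GTPases. In the 33 libraries Gbp2 and Gbp7 were at 0.62 and 0.65 with Cxcl9, and Stk24 at 0.37. Ccl5 was most like Lck (0.63), a kinase of T cells, Zdhhc14 (0.61) and Mindy4 (0.60). Ccl3 was most like 5430437J10Rik (0.70), Prkcd (0.69) and Ulk3 (0.68), and Cxcl12 like Adgrf5 (0.68), an endothelial receptor gene, AW549877 (0.67) and Ccl27a (0.66), of which Adgrf5 was at 0.45 in the 33 libraries.

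All values named for Ccl3, Cxcl9, Cxcl12, Cxcl14 and Cxcl16 were lower in the 33 libraries. Those of Ccl3 were 0.62, 0.60 and 0.54 there and those of Cxcl14 were 0.59, 0.73 and 0.62, and for Ccl5 Mindy4 was at 0.47. For 3 further ligands all the values named were lower as well. Prcp (0.94) and Slc29a3 (0.93) were among the genes most like Ccl6, but these values were 0.41 and 0.60 in the 33 libraries. Cxcl10 was most like Lpcat1 (0.91), Gm20559 (0.90) and Zfp553 (0.90), with 0.33, 0.43 and 0.41 in the 33 libraries. For Ccl4 the genes were C230035I16Rik (0.72), Edn1 (0.71) and Vps33b (0.71), with 0.36, 0.03 and 0.41.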

How the data were processed

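Liver RNA of 42 mice was measured. The authors made strand-specific libraries, trimmed reads with Trimmomatic, aligned them to GRCm38 with STAR 2.5 and counted read pairs per gene with HTSeq 0.6.1p1, and the deposited unit is the count, without normalization. The table of all mice equals the 42 single tables, and 0 columns belonged to no sample. HTSeq summary lines were left out.

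The 10 ligands, the gene lists and the tests were chosen with earlier results of these data known. Genes were named by rule: all 10 ligands, the 2 genes with the smallest p of each pathway list and comparison and the receptors of 9 pairs, where described, and the 3 genes most like each ligand.

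Symbols, positions and exon lengths came from GENCODE vM21, which holds 54409 of the 54446 gene identifiers. Genes passing filterByExpr (minimum count 10, minimum total count 15) were scaled by TMM and tested with edgeR 4.0.16 in R 4.3.3 (quasi-likelihood, robust, all 42 mice, 3 groups, no covariate), and called under 0.01, as in the study, after Benjamini-Hochberg adjustment. A fitted fold change of a gene near 0 depends on the prior. Log2 CPM used a prior count of 2, and permutation tests 100000 permutations. Mouse numbers differ between groups and pair nothing. Labels name separate animals and no batch, but the prefix of the mouse number differs between chow-fed mice and all others.

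Alternatives were DESeq2 1.42.0, the test the authors used, limma 3.58.1 voom, other scalings, filters, thresholds and libraries, a covariate and single mice left out. On simulated counts of 15385 genes for WTD against chow, 62 of 100 genes with a simulated log2 fold change of 1 and 3 of 100 at 0.5 were called, with 0 unchanged genes called. The spread of the simulated counts was assumed and not estimated from these mice. These shares therefore check the code and do not measure missed or false calls in the data. Tables and figures used statsmodels 0.14.6, scipy 1.17.1, matplotlib 3.10.9, pandas 2.3.3 and numpy 2.4.6 under Python 3.11.15. Proteins and histology were not analysed here. Some genes that the rule takes are left out of the text.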

Additional observations from a re-analysis of the deposited data

Results flagged for a closer look

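The 10 chow-fed mice were examined for each of the 10 ligands, and in 2 ligands a mouse stood far from the other 9. Ccl3 was at 3.74 CPM in chow replicate 5, with the next mouse at 1.99 CPM, a gap of 0.468 of the whole range and just above Dixon's critical value for 10 samples. Cxcl9 was at 57.9 CPM in the same mouse, with the next at 31.9 CPM and a gap of 0.528 of the range. Chance alone marks about 1 in 20 such groups. Chow replicate 5 is among the 9 libraries that lacked over 20% of weakly expressed genes, and it was the lowest chow-fed mouse in Cxcl14 (0.253 CPM), Cxcl16 (10.2 CPM) and Cxcl12 (279 CPM). The groups of 16 mice were not examined in this way.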

How the results depend on the processing

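Of the counts of ligands called, that of WTD against chow (6) was between 5 and 7 under the other settings and between 5 and 6 with single mice left out, except that it was 1 when 10 counts in every mouse were required, where 4 of the 10 ligands could be tested. With atorvastatin against WTD (1), it was 2 with DESeq2, 5 with limma-voom, 5 with only the 2 groups compared, 3 without the 9 libraries, 3 at an adjusted p under 0.05, 0 with a log2 fold change of at least 1 as well, and 1 to 3 with single mice left out. With atorvastatin against chow (4), it was 1 with 10 counts in every mouse, 7 without the 9 libraries, 7 at an adjusted p under 0.05 and 4 to 6 with single mice left out. Of the relations in WTD-fed mice (1), 2 other relations, of Cxcl12 with Ccl6 and with Ccl2, passed without the 9 libraries, and 0 to 2 with single mice left out, and of those in treated mice (14), 14 to 18. Calls over all genes changed as well. For WTD against chow they were 5224 of 15574 in the fit reported and 4183 of 9973 with 10 counts in every mouse. For atorvastatin against WTD they were 1106 of 15574, against 3145 of 15574 with limma-voom and 1361 of 14595 with only the 2 groups compared. For atorvastatin against chow they were 3893 of 15574, against 4581 of 15799 without the 9 libraries and 3364 of 9973 with the 10-count filter. Apart from fewer genes or samples, the causes of these changes were not tested.

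Values near 0 in the fit reported turned their sign. Ccl5 in WTD against chow was 0.31 with limma-voom and -0.31 to 0.047 with single mice left out. Ccl5 in atorvastatin against chow was 0.45 with limma-voom, 0.10 without the 9 libraries, 0.16 with the share of weak genes without a count as covariate and -0.18 to 0.17 with single mice left out. Cxcl9 in WTD against chow was -0.29 to 0.10 with single mice left out. Cxcl12 in atorvastatin against WTD was -0.0092 with DESeq2, -0.0095 with RLE, -0.0059 with 10 counts in every mouse and -0.025 with the covariate. Ccr1 in atorvastatin against chow (-0.24) was 1.95 with DESeq2, 3.46 with limma-voom, 2.37 without the 9 libraries, 1.70 with the covariate and -0.39 to 2.61 with single mice left out, the highest without chow replicate 5. None of these 5 values had passed in the fit reported. Ccr1 did pass with DESeq2 (adjusted p = 0.0031), with limma-voom (adjusted p = 0.0074) and without the 9 libraries (edgeR adjusted p = 0.0014). It also passed without chow replicate 5 (edgeR adjusted p = 0.0019). These were 3 of 9 other fits and 1 of 42 with a mouse left out. No paired analysis was possible because mouse numbers do not pair animals across groups. Ccl3 and Ccl4, with group medians under 3 CPM, had libraries at 0, where neither the level nor its absence can be read from a single mouse.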
